A study of Drosophila melanogaster with 18 samples.

Results

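A set of 10 genes of the visual cascade of Drosophila melanogaster, coding for light-response channels, enzymes, arrestins and their partners, were compared between heads with and without miR-210. They were named by their role in the cascade, by a rule that uses no measured value, as trp, trpl, norpA, inaD, inaC, Arr1, Arr2, rdgC, Gprk1 and Calx. All 10 were found by gene identifier among the 15406 genes of the head count table, and all 10 were among the 9470 genes with enough reads to be tested. The series holds 18 samples, of which the 6 poly(A) RNA libraries from heads were used here. The control group was wDah, the white Dahomey wild-type strain, with 3 libraries. The other group was miR-210Δ, a null mutant of the miR-210 gene made with Cas9 and a pair of guide RNAs on either side of the gene, also with 3 libraries. Both groups were adult heads taken 1 h after eclosion. The methods give once-mated females as the default of the study, and the library titles state neither sex nor mating. Transgenic lines were backcrossed, where necessary, into the white or the red Dahomey strain carrying the endosymbiont Wolbachia. The methods do not say whether this was done for miR-210Δ, and mutant progeny were found by PCR. How many lines or clones were kept, and how many flies went into a library, is not given in the sources used here. Nothing states that the 3 libraries of a group came from separate sets of flies, so p-values measure only the spread between these libraries, which may be technical.

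In fly photoreceptors, light turns rhodopsin into its active form, metarhodopsin, which activates a Gq protein. The Gq protein switches on the phospholipase C encoded by norpA, and the breakdown of a membrane phosphoinositide opens the cation channels TRP and TRPL. Calcium entering through these channels both amplifies and ends the response. INAD, a scaffold with PDZ domains, holds TRP, the phospholipase and the eye protein kinase C (INAC) together in the rhabdomere, the stack of microvilli that captures light. Arrestins encoded by Arr1 and Arr2 bind metarhodopsin and stop its signalling, while a receptor kinase (GPRK1) and a calcium-dependent phosphatase (RDGC) set its phosphorylation. CALX, a sodium/calcium exchanger, removes calcium after the response. The purpose of the head libraries, as given in the design, was to find potential targets of miR-210.

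The mature strands of the deleted miRNA are shown because a direct target would be sought by its seed, bases 2 to 8, which are in capitals. Both were read from the RefSeq dm6 assembly at chrX:18128270-18128292 and chrX:18128234-18128256, on the forward strand.
miR-210-3p: cUUGUGCGugugacagcggcuau
miR-210-5p: aGCUGCUGgccacugcacaagau
The match to the 3p seed, CGCACAA, was found in the annotated 3′ UTR of 0 of the 10 genes and in the coding sequence of 0 of the 10. Among all annotated genes of the table, 352 of 12399 (2.84%) had it in a 3′ UTR and 1358 of 12790 (10.6%) in the coding sequence. A functional seed has also been written as UGCGUGU, which is not the stretch in capitals but bases 5 to 11 of the 3p strand. Its match, ACACGCA, was in the 3′ UTR and in the coding sequence of 0 of the 10, against 4.47% and 8.41% of all genes. The match to bases 3 to 9, ACGCACA, was in 1 of the 10, trp, both in the 3′ UTR (3.90% of all genes) and in the coding sequence (8.94%). These are also the letters replaced in the study's mutated construct of the Fasn1 3′ UTR. If the 3p strand began 1 base later than annotated here, bases 3 to 9 would be its seed. The count of 0 for the seed therefore depends on the annotated 5′ end. The longest 3′ UTR of trp (3182 bases) and its longest coding sequence (3825 bases) share bases, since its exons cover 4149 bases. The matches in both may therefore be the same stretch. A match is a description and not a site, and no match says only that these letters were not in the annotated windows. The mir-210 gene itself had 0 counts in all 6 head libraries, controls included, so these poly(A) libraries gave no check of the deletion.

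The promoter windows, 250 bases before to 50 bases after the annotated 5′ end of each gene, were searched on both strands for 4 motifs. As examples, 3 matches are shown, in trp and Arr1, and those in other genes are not printed. Capitals mark the motif, and each stretch is written along its own gene.
trp, palindrome at -11, chr3R:29920281-29920309, reverse strand: attgggcacTAATGTAATTAgtggaatat
trp, E-box at -175, chr3R:29920450-29920473, reverse strand: gtcgctcatCACGTGcaatgcaac
Arr1, TATA motif at -28, chr2L:18078232-18078255, forward strand: aatgccaggTATAAAtgccggatt
The palindrome TAATNNNATTA is of the type bound by paired-class homeodomain proteins and occurs in fly rhodopsin promoters. It was present in 2 of the 10 genes, trp and trpl, where it began at -68, against 460 of 15186 promoters in all (3.03%). The E-box CACGTG was in 1 of the 10, trp, against 4.20% of promoters. The motif TATAAA was in 4 of the 10, trpl, inaC, Arr1 and Gprk1, against 44.5%. It lay near the start in trpl, at -27, as well as in Arr1, at -28. A further match in trpl was at -175, and those in inaC and Gprk1 were at -223 and -150. TAATCC, a motif of the Otd type of homeodomain protein, was in 0 of the 10, against 8.86%. These matches are descriptions of the sequence and were not tested as binding sites.

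Of the 10 light-response genes, 9 were lower in miR-210Δ heads, 0 were higher and Gprk1 was not called, by edgeR's quasi-likelihood test with Benjamini-Hochberg adjustment at a threshold of 0.05. The same test called 580 of the 9470 genes lower, a background of 6.12%, and 376 higher, a background of 3.97%. In the same 9 genes every miR-210Δ library lay below every wDah library, a pattern that 15.0% of all tested genes showed. The median log2 fold change of the 10 genes was -0.50, against 0.00 over all tested genes, whose median absolute log2 fold change was 0.09. In order of the fall, the genes were trpl, inaC, Arr1, trp, norpA, inaD, Arr2, Calx, rdgC and Gprk1. In whole heads, fewer photoreceptors and less RNA per photoreceptor cannot be told apart.

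**Figure D1:**
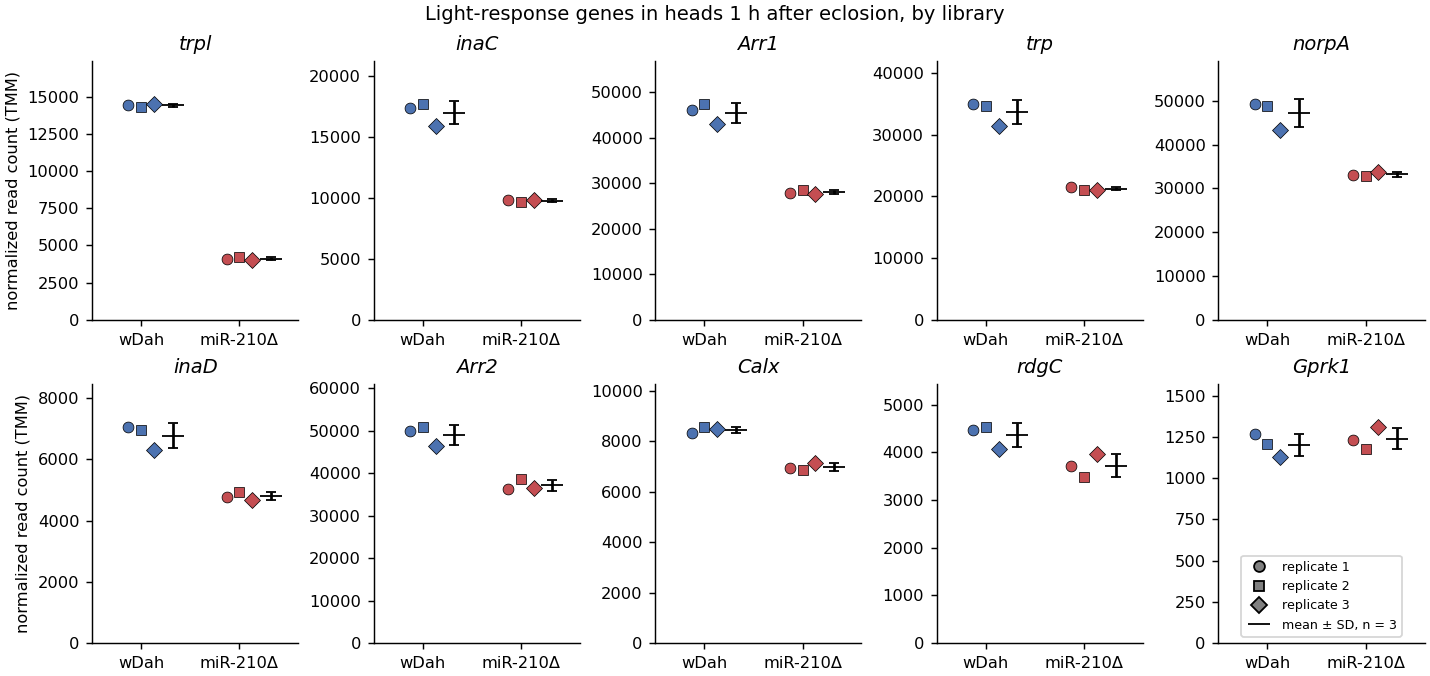
Normalized read count (y axis, from 0, scaled by TMM) of each light-response gene in each of the 6 head libraries, with 1 panel per gene in order of the fall; marker shapes give the replicate number, and bars give the mean ± SD (n = 3). The groups are apart in 9 panels, most widely for trpl (14419 against 4102), and overlap only for Gprk1.

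Depth was 17992976 to 21315973 counts per head library, and the fitted dispersion gave a coefficient of variation of 5.54% between replicates. Because tissue makeup bears on every result, marker genes were read beside the members. Of 6 photoreceptor markers, 5 were lower and 1, prom, was higher, with a median log2 fold change of -0.66. Their summed level was 17882 to 19610 CPM (normalized counts rescaled to a fixed library total) in wDah and 9601 to 9965 CPM in miR-210Δ. The largest part of this sum was the rhodopsin gene ninaE, with a wDah mean of 261183 normalized counts against 80646 for chp, the next highest. Among the 5 neuron markers tested, 0 were called (median log2 fold change -0.03), and among 5 glial markers only Eaat1, a glutamate transporter, was lower (-0.22). Of 3 markers of cone and pigment cells, Cpr72Ec, a cuticle protein of the corneal lens, was higher (0.26), and their sum was 998 to 1106 CPM in wDah and 1169 to 1222 CPM in miR-210Δ. None of the 4 muscle (median log2 fold change -0.40), 4 fat body (0.07) or 4 antennal (-1.20) markers tested was called. The antennal markers Orco, Obp83a and Obp83b had values of -0.99, -2.15 and -1.41 at low counts and with wide spread. The remaining antennal marker, lush, had far more reads and a log2 fold change of -0.003, with means of 2057 normalized counts in wDah and 2053 in miR-210Δ. A tested marker could not be at 0 in all libraries, because genes with too few reads were removed before testing. The part of these marker changes in the members' falls was not tested.

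The falls were largest at the channel TRPL. The gene trpl (FBgn0005614, dm6 chr2R:9753697-9765518, forward strand) encodes the less calcium-selective of the light-gated channels, which in flies moves between the rhabdomere and the cell body with light. Its normalized read counts were 14467, 14299 and 14492 in the wDah libraries and 4102, 4197 and 4008 in the miR-210Δ libraries. The groups were far apart, and the spread within each was small. The means were 14419 ± 105 and 4102 ± 94.2 (SD, n = 3), a level 71.6% lower, with a log2 fold change of -1.81 (SE 0.0378, edgeR adjusted p = 3.85e-10, 95% interval -1.90 to -1.73). This was the 49th most negative log2 fold change of the 9470 genes tested.

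The gene trp (FBgn0003861, chr3R:29914521-29920289, reverse strand) encodes the main light-gated calcium channel. Its normalized counts were 34923, 34599 and 31474 in wDah and 21493, 21108 and 21066 in miR-210Δ. The lowest control library was well above the highest mutant library. The means were 33666 ± 1904 and 21223 ± 235 (SD, n = 3), so that trp kept 63.0% of its control level, with a log2 fold change of -0.67 (SE 0.0473, edgeR adjusted p = 5.65e-06). Its interval, -0.77 to -0.56, did not reach that of trpl.

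The proportion of the channel transcripts differed between genotypes. The ratio of trp to trpl counts was 2.41, 2.42 and 2.17 in the wDah libraries and 5.24, 5.03 and 5.26 in the miR-210Δ libraries. There was no overlap, and the highest control ratio was under every mutant ratio. Scaled by exon length, there were 2.19 ± 0.133 trp reads per trpl read in wDah and 4.86 ± 0.118 in miR-210Δ (SD, n = 3), a count ratio 2.22-fold higher, or 1.15 in log2. With 3 libraries against 3 the exact two-sided permutation test could not go below 0.1, the value it gave here, and after adjustment over the 9 pairs compared it was 0.113. None of the 9 pairs could therefore pass 0.05 in that test. A ratio within a library does not depend on the scaling between libraries apart from the added 0.5 counts.

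**Figure D2:**
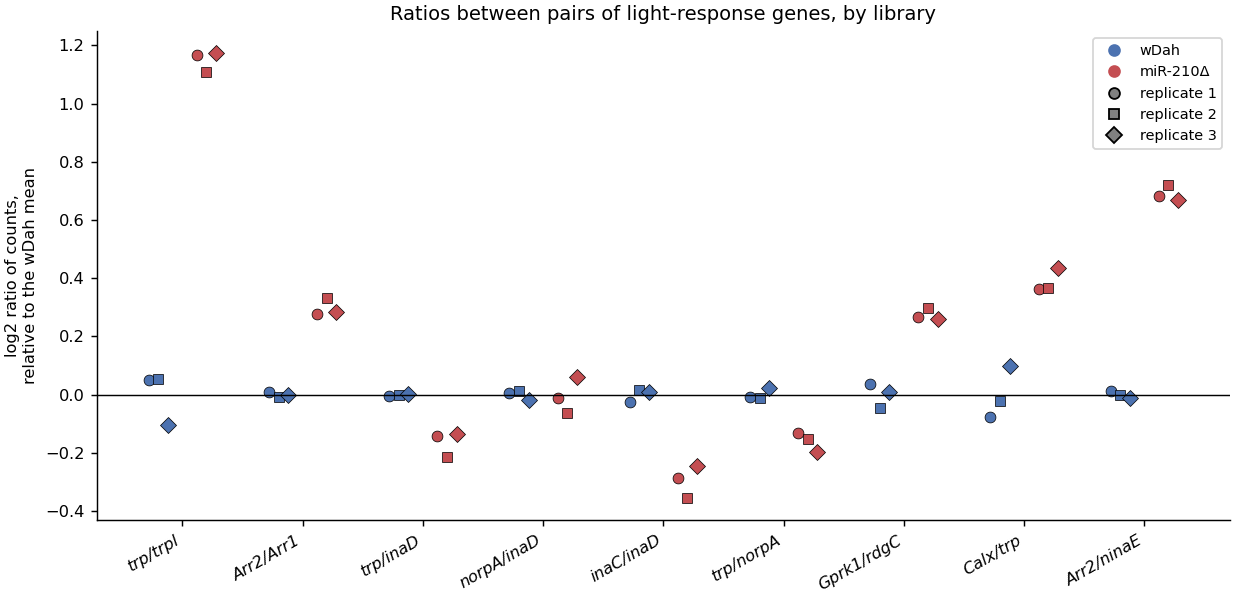
Log2 ratio of counts for 9 gene pairs (x axis) in each of the 6 head libraries, relative to the wDah mean of that pair (y axis, log2 units); colours give the genotype and marker shapes the replicate number. The trp/trpl ratio is 1.15 higher in miR-210Δ and Arr2/ninaE 0.69 higher, while for norpA/inaD the groups overlap around 0.

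Among the enzymes, inaC fell most. The gene inaC (FBgn0004784, chr2R:16898535-16901575, forward strand) encodes the eye-specific protein kinase C, needed for the normal shut-off of the light response. Its normalized counts were 17373, 17699 and 15947 in wDah and 9830, 9680 and 9869 in miR-210Δ. The groups did not overlap, and the mutant libraries were close together. Means of 17006 ± 932 and 9793 ± 99.6 (SD, n = 3) gave a log2 fold change of -0.80 (SE 0.0460, edgeR adjusted p = 1.01e-06), and 197 of the tested genes had a log2 fold change at or below it.

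The gene norpA (FBgn0262738, chrX:4322626-4365408, forward strand), coding for the phospholipase C without which flies are blind, had normalized counts of 49214, 48887 and 43428 in wDah and 32949, 32847 and 33797 in miR-210Δ. The third control library was the lowest of its group but above all mutant libraries. Means were 47176 ± 3250 and 33198 ± 521 (SD, n = 3), 70.4% of control, with a log2 fold change of -0.51 (SE 0.0521, edgeR adjusted p = 9.35e-05).

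The scaffold gene inaD (FBgn0001263, chr2R:22855688-22858794, reverse strand) had normalized counts of 7048, 6969 and 6321 in wDah and 4779, 4933 and 4663 in miR-210Δ. The order of the control libraries was like that of norpA, and again the groups were apart. Means were 6779 ± 399 and 4792 ± 136 (SD, n = 3), 70.7% of control, with a log2 fold change of -0.50 (SE 0.0476, edgeR adjusted p = 5.27e-05). The gene shares 7 exon bases with RpL23, a ribosomal protein gene on the opposite strand, and the strand setting of the counting is not given in the sources used here.

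Within the INAD signalling complex, the ratio of norpA to inaD overlapped between genotypes, while inaC and trp were lower relative to inaD. The norpA/inaD count ratio was 6.98, 7.02 and 6.87 in wDah and 6.90, 6.66 and 7.25 in miR-210Δ, groups that overlapped, with a log2 difference of -0.01 (exact permutation p = 1). The inaC/inaD ratio was 2.46, 2.54 and 2.52 against 2.06, 1.96 and 2.12, a log2 difference of -0.30 with no overlap. The trp/inaD ratio was 4.95, 4.96 and 4.98 against 4.50, 4.28 and 4.52, a log2 difference of -0.16 with no overlap. In the controls this last ratio varied least of the 9 pairs, with an SD of 0.00362 in log2, although the third library was low for both genes. The trp/norpA ratio went from 0.710, 0.708 and 0.725 to 0.652, 0.643 and 0.623, a log2 difference of -0.16, also without overlap. For the 3 pairs without overlap the exact permutation p was 0.1, the smallest possible, and 0.113 after adjustment.

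The arrestin genes both fell. The gene Arr1 (FBgn0000120, chr2L:18078269-18081307, forward strand), whose arrestin takes part in the internalisation of rhodopsin, had normalized counts of 46025, 47314 and 42951 in wDah and 27742, 28504 and 27683 in miR-210Δ. The control and mutant libraries were clearly separated. Means were 45430 ± 2242 and 27976 ± 458 (SD, n = 3), 61.6% of control, with a log2 fold change of -0.70 (SE 0.0457, edgeR adjusted p = 2.64e-06).

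The gene Arr2 (FBgn0000121, chr3L:8647261-8648936, reverse strand), which encodes the major arrestin that quenches metarhodopsin, had normalized counts of 49982, 50815 and 46358 in wDah and 36335, 38701 and 36426 in miR-210Δ. The second mutant library was its group's highest and still below the lowest control. Means were 49052 ± 2370 and 37154 ± 1340 (SD, n = 3), 75.7% of control, with a log2 fold change of -0.40 (SE 0.0483, edgeR adjusted p = 2.98e-04).

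The Arr2/Arr1 count ratio moved from 1.09, 1.07 and 1.08 in wDah to 1.31, 1.36 and 1.32 in miR-210Δ, a 1.23-fold higher ratio (0.30 in log2). Against ninaE, which encodes Rh1, the rhodopsin of the outer photoreceptors, Arr2 was higher in miR-210Δ. The Arr2/ninaE ratio was 0.189, 0.188 and 0.186 in wDah and 0.301, 0.309 and 0.298 in miR-210Δ, 1.61-fold higher (0.69 in log2). Neither ratio overlapped between genotypes, and each had an exact permutation p of 0.1, 0.113 after adjustment. The normalized counts of ninaE itself were 248838 to 270891 in wDah and 120544 to 125088 in miR-210Δ, with a log2 fold change of -1.09 (edgeR adjusted p = 7.91e-08).

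The genes that act on rhodopsin phosphorylation were at the low end of the order, although rdgC was not separated from Calx, and without wDah replicate 3 both stood at -0.28. The gene rdgC (FBgn0265959, chr3L:20248080-20265554, forward strand), coding for the calcium-dependent rhodopsin phosphatase, had normalized counts of 4475, 4527 and 4068 in wDah and 3716, 3479 and 3958 in miR-210Δ. The third libraries of the groups nearly met, at 4068 and 3958. Means were 4356 ± 251 and 3718 ± 240 (SD, n = 3), 85.3% of control, with a log2 fold change of -0.23 (SE 0.0553, edgeR adjusted p = 0.0233). The call was lost in 5 of the 12 alternative settings, with adjusted p between 0.0762 and 0.110: when libraries were scaled by their totals alone (log2 fold change -0.17), and without wDah replicate 1 (-0.21) or 2 (-0.20) or miR-210Δ replicate 1 (-0.23) or 2 (-0.18).

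The gene Gprk1 (FBgn0260798, chr2R:4322295-4471060, reverse strand), coding for the receptor kinase that phosphorylates rhodopsin, had normalized counts of 1265, 1210 and 1129 in wDah and 1234, 1179 and 1309 in miR-210Δ. The libraries of the genotypes were interleaved. Means were 1201 ± 68.4 and 1241 ± 65.0 (SD, n = 3), with a log2 fold change of 0.05 (SE 0.0558, edgeR adjusted p = 0.685). Its interval of -0.08 to 0.17 holds neither a fall of the size of any called member nor a rise of more than 0.17 in log2. The Gprk1/rdgC ratio, kinase over phosphatase, was 0.283, 0.267 and 0.278 in wDah and 0.332, 0.339 and 0.331 in miR-210Δ, 0.28 higher in log2 without overlap (exact permutation p = 0.1, 0.113 adjusted).

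The gene Calx (FBgn0013995, chr3R:20978183-21015613, forward strand), coding for the exchanger that extrudes calcium, had normalized counts of 8323, 8558 and 8481 in wDah and 6943, 6848 and 7160 in miR-210Δ. The groups did not overlap, and the spread within each was small. Means were 8454 ± 120 and 6984 ± 159 (SD, n = 3), 82.6% of control, with a log2 fold change of -0.28 (SE 0.0367, edgeR adjusted p = 5.85e-04, 95% interval -0.36 to -0.19). Relative to trp, the channel through which most calcium enters, Calx was higher in miR-210Δ. The Calx/trp count ratio was 0.238, 0.247 and 0.269 in wDah and 0.323, 0.324 and 0.340 in miR-210Δ, 0.39 higher in log2 without overlap (exact permutation p = 0.1, 0.113 adjusted).

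Neighbours in the order of the fall could not all be told apart. All 45 pairs of the 10 genes were compared by their ratio in each library, and in 41 of them the genotypes did not overlap. The 4 pairs that overlapped were neighbours: Arr1 and trp (difference of log2 fold changes -0.03), norpA and inaD (-0.01), Arr2 and Calx (-0.12), and Calx and rdgC (-0.05). The step from trpl to inaC was the widest, at -1.02, followed by that from rdgC to Gprk1, at -0.28. Over all pairs of tested genes, 28.7% did not overlap in either direction. Several gaps were many times the SD of the ratio, which for trpl against inaC was 0.09 in wDah and 0.05 in miR-210Δ. The exact permutation test could not go below 0.1, or 0.110 after adjustment over the 45 pairs, and so does not separate the pairs.

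**Figure D3:**
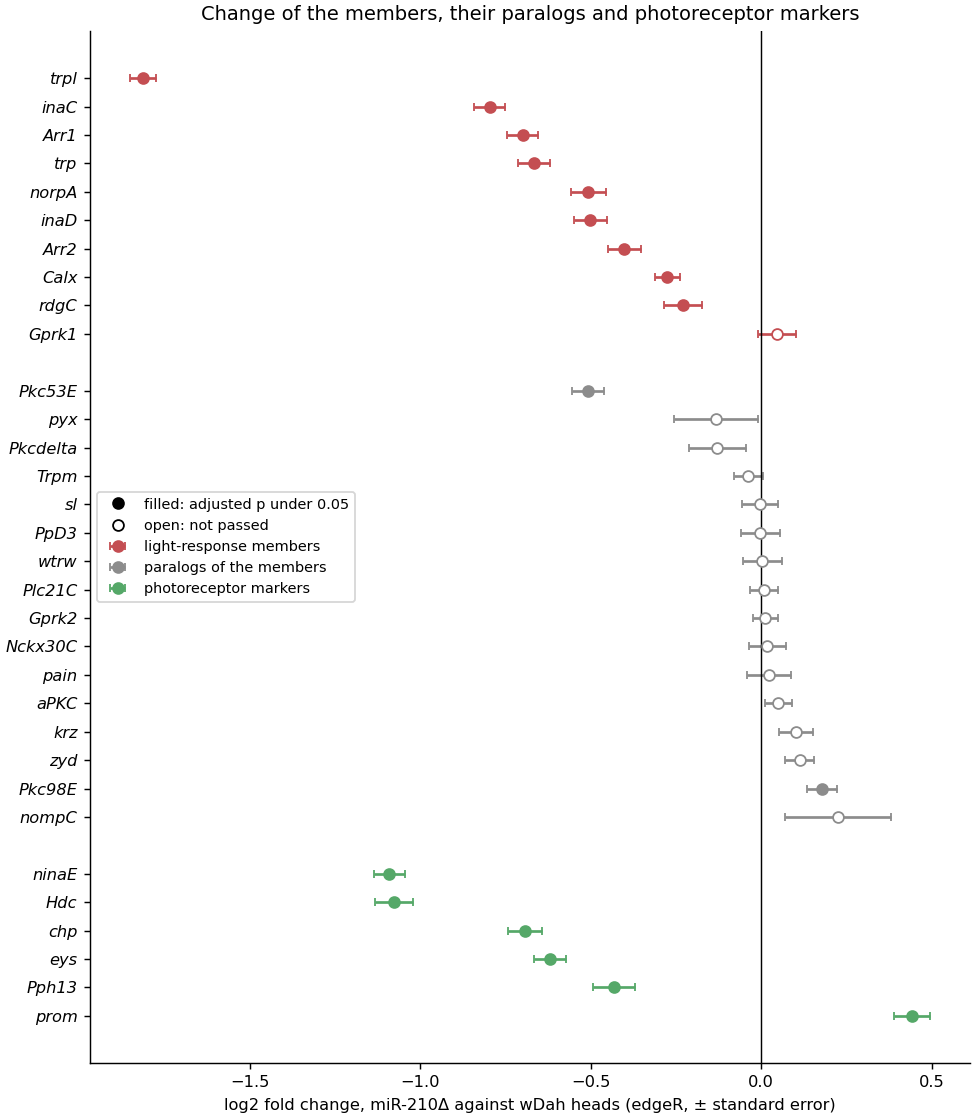
Log2 fold change of miR-210Δ against wDah heads (x axis) with its standard error from edgeR, for the 10 light-response genes, their paralogs and 6 photoreceptor markers; filled points passed an adjusted p of 0.05. The 16 of 20 tested paralogs whose standard error was under 0.2 are drawn, and of these only Pkc53E (-0.51) and Pkc98E (0.18) passed the test, while the members run from -1.81 (trpl) to 0.05 (Gprk1).

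Levels between genes were compared as CPM per kb of annotated exon. The length joined the exons of all annotated transcripts, 8296 bases for norpA with 6 transcripts and 2351 bases for inaC with 1. By normalized counts norpA was above inaC in wDah (47176 against 17006), so the order depends on the length used. In wDah heads, Arr2 (1633 ± 78.9) and Arr1 (945 ± 46.6) were highest, followed by trp (418 ± 23.6), inaC (373 ± 20.4), norpA (293 ± 20.2), trpl (191 ± 1.38) and inaD (149.8 ± 8.82). Calx (48.6), rdgC (42.3) and Gprk1 (24.6) were the lowest. The arrestin genes had the most abundant transcripts of the set. In miR-210Δ heads trpl went from above inaD (149.8) to below it, with 54.3 ± 1.25 against 105.9 ± 3.00 CPM per kb, and the remaining genes kept their order. Summed over the 10 genes, the level was 4118 CPM per kb in wDah and 2765 in miR-210Δ, 67.1% of control. The share of this sum held by Arr2 was 39.7% in wDah and 44.7% in miR-210Δ and that of trpl 4.63% and 1.96%.

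**Figure D4:**
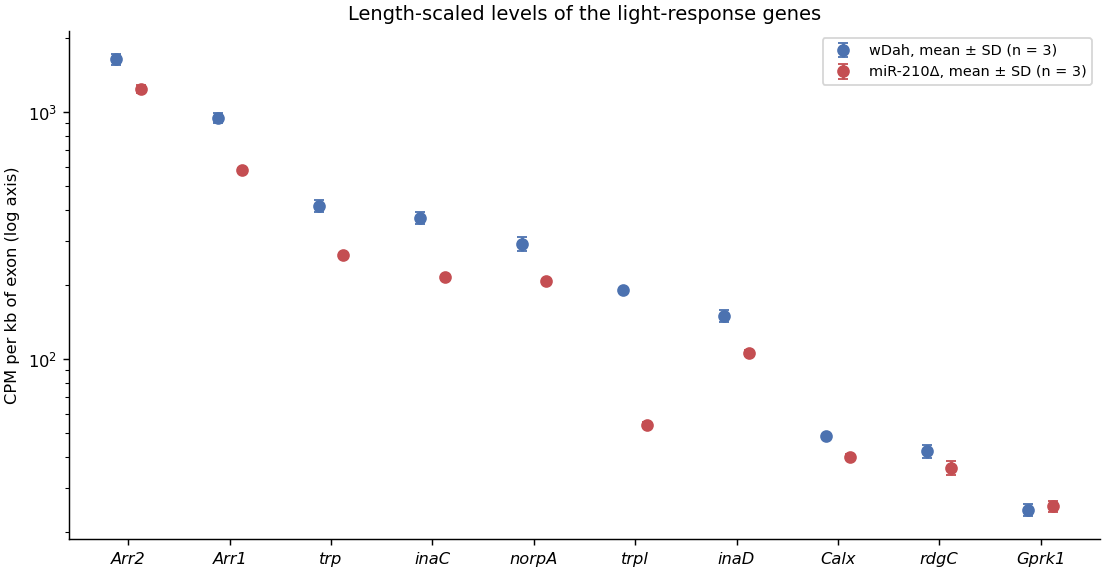
Length-scaled level (y axis, CPM per kb of exon, log axis) of each light-response gene in wDah and miR-210Δ heads, as mean ± SD (n = 3). Arr2 is highest in both genotypes, and trpl drops from 191 to 54.3, below inaD.

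The spread within wDah was shared by many of the genes. In wDah replicate 3, 8 of the 10 genes lay below the control mean, all but trpl and Calx, with a median log2 deviation of -0.09, whereas the median over all tested genes was 0.00. The summed muscle markers ranged from 9623 to 16847 CPM among the wDah libraries, with the highest value in replicate 3, and from 10338 to 11238 CPM in miR-210Δ. The part of muscle RNA in this library's deviation was not tested. Without wDah replicate 3, 9 genes were again lower and 0 higher, with log2 fold changes of -1.81 for trpl, -0.84 for inaC, -0.74 for Arr1, -0.72 for trp, -0.57 for norpA, -0.55 for inaD and -0.28 for rdgC. In miR-210Δ the median deviations of the libraries were between -0.01 and 0.00, and rdgC and Gprk1 deviated most.

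**Figure D5:**
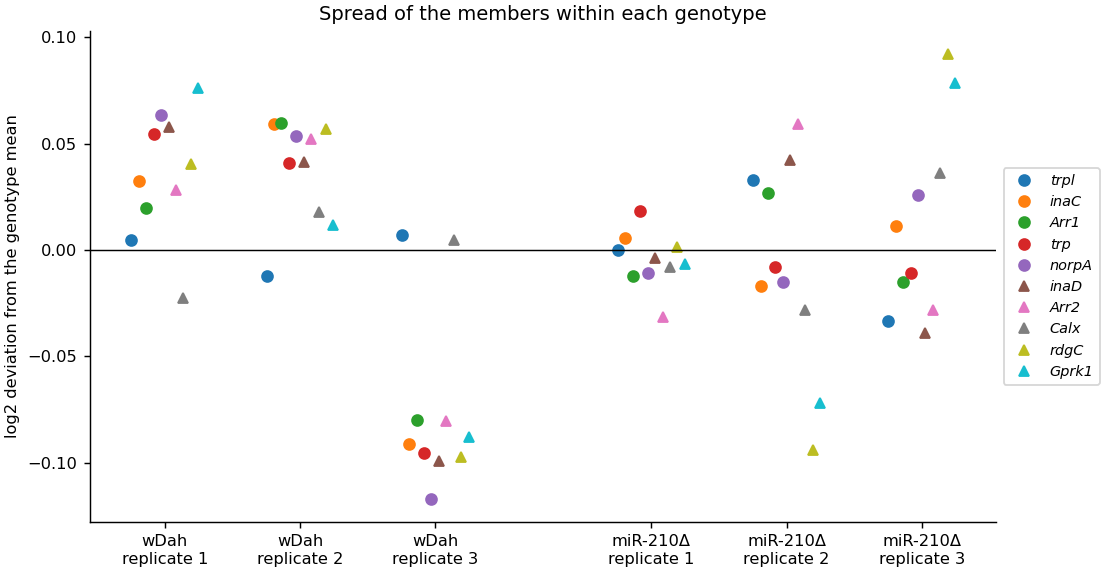
Log2 deviation of each light-response gene from the mean of its genotype (y axis) in each of the 6 head libraries (x axis); colours and shapes give the gene. In wDah replicate 3, 8 of 10 genes lie below 0, while in the miR-210Δ libraries they lie on both sides.

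Other genes of the cascade were read as a list of 20, of which 16 were matched by symbol to the count table and all 16 were tested. Of these, 7 were lower, 0 were higher and 9 were not called, with a median log2 fold change of -0.16 against -0.50 for the 10 light-response genes. Pis, the phosphatidylinositol synthase that replenishes the lipid used by the phospholipase, was lower by edgeR (log2 fold change -0.74, adjusted p = 8.95e-07), as was Gbeta76C, the eye G protein beta subunit (-0.62, adjusted p = 1.43e-05). Also lower by edgeR were rtp (-0.50, adjusted p = 3.26e-05) and the second photoreceptor protein kinase C gene Pkc53E (-0.51, adjusted p = 3.94e-05). The other genes called lower were ninaC, Galphaq and rdgB, with log2 fold changes of -0.31, -0.30 and -0.29. Without wDah replicate 3 the count of lower genes was 11. Cdsa, inaF-B, Pi3K59F and sktl were not matched by symbol, which does not show that they are absent from the table, and were not analysed here.

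Of the 7 rhodopsin genes, 6 were lower and Rh7 was not called, with a median log2 fold change of -1.79 and a lowest value of -3.69 for Rh2, the rhodopsin of the ocelli. Only trpl among the 10 light-response genes had a fall of the size of the rhodopsin median. The log2 fold change of ninaE, the most abundant rhodopsin gene, lay between those of trpl and inaC.

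Other genes of the same protein families gave a comparison within each kind of protein, although Pkc53E and Gprk2 among them were also in the list of cascade genes above. Of 22 such paralogs 20 were tested, and 1 was lower, 1 was higher and 18 were not called, with a median log2 fold change of 0.01. Of the TRP channels other than trp and trpl, 9 were tested and 0 were called by edgeR, with log2 fold changes of -0.23 to 0.30. Trpgamma, the closest relative of trp and trpl, was among them with a low level (29.2 ± 4.65 normalized counts in wDah and 36.2 ± 10.1 in miR-210Δ). The phospholipase C genes Plc21C and sl had log2 fold changes of 0.01 and 0.00 beside the -0.51 of norpA. Of 4 protein kinase C genes, Pkc53E was lower, as above, and Pkc98E was higher (0.18, edgeR adjusted p = 0.0248). The arrestin krz (0.10), the receptor kinase Gprk2 (0.01), the phosphatase PpD3 (0.00) and the exchangers Nckx30C (0.02) and zyd (0.11) were not called.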

How the data were processed

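Heads of wDah and miR-210Δ flies were compared, with 3 poly(A), single-end libraries each. Per the methods and the submitters' processing notes, reads were quality-trimmed (Trim Galore 0.3.7) and mapped to Dm6 with TopHat2, and SAMtools was used to drop multi-mapped reads. The authors deposited raw counts per gene, made with a counting tool, gene models and strandedness that are not stated in the methods or labels. Reads that map equally to near-identical copies were thus not counted. Gene symbols were taken from the deposited DESeq2 comparison, whose means, fold changes and p-values were not used, and the small RNA counts were not analysed here.

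Counts were tested with edgeR 4.0.16 (filterByExpr, TMM, quasi-likelihood test, Benjamini-Hochberg over 9470 genes, threshold 0.05) in R 4.3.3. Normalized counts are counts divided by the TMM-based size factor, and levels per kb use the annotated exon length. Ratios of 2 genes, with 0.5 counts added, were compared by exact two-sided permutation of libraries with SciPy 1.17.1. Coordinates, promoters, UTRs and the miRNA are from the Ensembl and RefSeq annotations of dm6. The rule for the genes uses no measured value, but the genes, lists, pairs and tests were chosen with earlier results of these data known. All 10 members are named, and other genes are up to 4 called genes of a list by adjusted p, the genes of the pairs, and some named after their values were seen. The edgeR procedure was run on counts simulated with the same dispersion for all genes, so differences in spread between genes were not simulated. Alternatives were DESeq2 1.42.0, limma-voom (limma 3.58.1), other size factors, no filter, another pseudocount, a replicate block and each library left out. With 17992976 to 21315973 counts per library, members had 1072 counts or more in each library. Figures were drawn with matplotlib 3.10.9.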

Additional observations from a re-analysis of the deposited data

How the results depend on the processing

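Under 12 alternative settings the members lower in miR-210Δ numbered 8 or 9 and those higher 0, and the gene lost was rdgC. The other called members kept their direction and call in all 12, trpl between -1.83 and -1.75 in log2. Without 1 library at a time, genes called lower over all tested ranged from 375 to 755 and genes called higher from 219 to 523, the lowest counts being without miR-210Δ replicate 1. Scaling by library totals gave 793 genes higher and moved the median of all genes to 0.06 in log2. The cause of these shifts was not tested. The norpA/inaD difference reversed sign without wDah replicate 2 (0.000589) and without miR-210Δ replicate 2 (0.0233), and ranged from -0.0379 to 0.0233 with 1 library left out. The other 8 ratios kept their direction in all 10 settings run for them, trp/trpl between 1.10 and 1.18.

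The labels number the replicates alike in both genotypes, but the deviations of same-numbered libraries correlated at -0.08, 0.07 and 0.10 over genes, which gave no sign of pairing. With a replicate block 9 members were lower, 542 genes were called lower and 313 higher. The cone and pigment, neuron, glia, muscle, fat body and antenna markers were not rerun under the settings. With 3 libraries a group, no single ratio could pass 0.05 in the exact permutation test.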
